A study of Homo sapiens with 6 samples.

Results

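The regions described here are G-quadruplex peaks that lie near the centromeres and away from protein-coding genes. They were chosen by position alone: a peak was kept when it lay neither inside nor within 1 kb of a protein-coding gene of the RefSeq table for hg38, and within 5 Mb of a listed centromere position on chromosomes 1 to 20, 22 or X, or in a segment of 1 Mb further along the long arm of chromosome 1. The rule found 198 of 2269 peaks in cells treated with 1,6-hexanediol (HD) and 390 of 3507 peaks in untreated cells (Ctrl), 588 of 5776 in all. The cells were U2OS, an established human osteosarcoma line, which the labels describe as epithelial cells. The HD and Ctrl groups differed in the labels only in the alcohol treatment, for which no dose or duration was given. In both groups fixed chromatin was immunoprecipitated with BG4, an antibody against folded G-quadruplexes, and the labels list 2 such libraries and 1 input library for HD and as many for Ctrl. Each condition has 1 deposited peak list and no value per library, so no difference between HD and Ctrl could be set against the spread between libraries, and no test was made. Every one of the 2269 HD peaks is named for replicate 1, so whether both HD libraries stand behind them is uncertain. Peak lists hold no expression values, so the line's identity was not checked against marker genes.

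Centromeres are the chromosome sites where kinetochores assemble, and in human cells they lie on long arrays of a tandem repeat, alpha satellite. The surrounding pericentromeric heterochromatin holds other satellites, segmental duplications and many pseudogenes, with few active genes. The genome assembly represents the arrays by modelled sequence, and copies of a repeat that the assembly lacks add their reads to the copies it holds. Chromosomes 1, 5 and 19 share a family of alpha satellite arrays so alike that a read from one may be placed on another. How the authors treated reads with several possible places was not stated. G-quadruplexes are stacked structures that guanine-rich strands fold into, and they are best known from gene promoters and telomeres.

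Most members lay far from any annotated gene, and the few at noncoding genes are the ones for which reference sequence is at hand. Of the members, 133 of 198 in HD (67.2%) and 257 of 390 in Ctrl (65.9%) were over 100 kb from a gene of any kind, while 20 in HD (10.1%) and 39 in Ctrl (10.0%) touched or lay within 1 kb of a noncoding gene or pseudogene. Members overlapped 12 promoter windows of 10 long noncoding RNA (lncRNA) genes, each window running from 250 bases before to 50 bases after a gene start. Of these windows, 6 are printed here from RefSeq (GRCh38.p14, a patch release of hg38), read on the gene's own strand. DANCR (chr4:52712144-52712443, plus strand), LINC01431 (chr20:23358078-23358377, minus strand), LINC00662 (chr19:27793891-27794190, minus strand) and LOC107985416 (chr20:31572760-31573059, plus strand) were overlapped in both lists, and LOC105371200 (chr16:35207699-35207998, plus strand) and LOC105379418 (chr22:10741842-10742141, plus strand) in the Ctrl list only. Capitals mark runs of 3 or more G or 3 or more C, the letters from which a G-quadruplex on either strand is built.
DANCR: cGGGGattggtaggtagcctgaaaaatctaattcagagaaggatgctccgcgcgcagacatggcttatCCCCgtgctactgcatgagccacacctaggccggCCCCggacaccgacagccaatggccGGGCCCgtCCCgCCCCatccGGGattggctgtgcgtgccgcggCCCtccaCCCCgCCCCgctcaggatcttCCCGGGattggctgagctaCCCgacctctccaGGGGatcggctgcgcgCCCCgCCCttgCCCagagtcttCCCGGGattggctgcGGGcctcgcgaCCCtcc
LINC01431: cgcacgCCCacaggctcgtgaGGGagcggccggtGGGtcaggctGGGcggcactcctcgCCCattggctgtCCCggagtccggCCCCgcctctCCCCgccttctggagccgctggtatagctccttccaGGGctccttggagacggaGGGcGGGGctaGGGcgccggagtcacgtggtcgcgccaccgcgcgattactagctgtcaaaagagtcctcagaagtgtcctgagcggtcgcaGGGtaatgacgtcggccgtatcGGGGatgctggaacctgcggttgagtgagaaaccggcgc
LINC00662: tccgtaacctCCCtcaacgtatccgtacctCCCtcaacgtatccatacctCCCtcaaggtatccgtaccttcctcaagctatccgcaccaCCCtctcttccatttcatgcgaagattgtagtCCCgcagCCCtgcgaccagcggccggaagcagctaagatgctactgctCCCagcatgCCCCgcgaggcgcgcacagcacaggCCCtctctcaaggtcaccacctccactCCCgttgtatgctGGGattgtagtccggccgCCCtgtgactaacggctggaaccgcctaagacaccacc
LOC107985416: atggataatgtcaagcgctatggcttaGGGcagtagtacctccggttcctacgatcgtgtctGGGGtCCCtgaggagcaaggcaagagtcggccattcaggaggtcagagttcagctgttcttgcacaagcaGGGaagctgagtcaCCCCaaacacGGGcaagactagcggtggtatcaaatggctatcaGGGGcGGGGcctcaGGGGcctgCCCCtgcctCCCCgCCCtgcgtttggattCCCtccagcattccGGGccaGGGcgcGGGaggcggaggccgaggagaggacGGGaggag
LOC105371200: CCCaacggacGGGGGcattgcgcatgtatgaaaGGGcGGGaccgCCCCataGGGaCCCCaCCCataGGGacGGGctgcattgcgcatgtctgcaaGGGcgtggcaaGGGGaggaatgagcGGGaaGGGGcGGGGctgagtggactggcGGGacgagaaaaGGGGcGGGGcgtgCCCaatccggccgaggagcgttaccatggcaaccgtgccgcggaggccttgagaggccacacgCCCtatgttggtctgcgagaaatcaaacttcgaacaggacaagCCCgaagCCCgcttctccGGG
LOC105379418: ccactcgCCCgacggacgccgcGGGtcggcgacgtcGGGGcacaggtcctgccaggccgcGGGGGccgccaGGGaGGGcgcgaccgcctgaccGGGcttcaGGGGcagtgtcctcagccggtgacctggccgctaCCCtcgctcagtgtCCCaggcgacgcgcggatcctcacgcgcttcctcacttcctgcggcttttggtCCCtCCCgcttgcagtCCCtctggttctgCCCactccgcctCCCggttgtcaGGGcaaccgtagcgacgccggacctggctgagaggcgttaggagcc

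These windows were rich in G and C and in short runs, but did not hold the strict form of the motif. The GC content of the 12 windows ran from 59.3% to 80.0% with a median of 66.5%, against a median of 58.7% over all 35116 promoter windows of the table and 50% over its 12836 lncRNA windows. None of the 12 held, on either strand, 4 runs of GGG or longer parted by gaps of 1 to 7 bases of any kind, which 25% of all windows and 15.7% of lncRNA windows did. With gaps of up to 12 bases, 8 of the 12 held the motif (66.7%), against 37.8% of all windows and 24.8% of lncRNA windows. Some of the 12 windows overlap one another, and for some the summit lay outside the window. Promoter windows under other peaks were not scored, so whether these windows differ from other promoters with peaks was not tested. A match describes the letters of a window and is not a measured site, and the sequence of the other members was not analysed here.

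At DANCR, an lncRNA gene named for its action against cell differentiation, the HD summit lay 19 bases before the gene start and the Ctrl summit 23 bases after it. The HD peak had 47 ChIP fragments over its summit (exact 95% Poisson interval 34.5 to 62.5) and the Ctrl peak had 32 (21.9 to 45.2). These fragment numbers were recovered from the fold and p-value that the caller gave each peak, as was the number that input led the caller to expect, and all intervals here cover counting error only. The mean ChIP coverage recovered for the lists was 5.51 fragments in HD and 3.74 in Ctrl, so fragment numbers were divided by it before HD and Ctrl were compared. On this scale the DANCR summit stood at 8.53 times the mean in HD and 8.56 times in Ctrl, a ratio of 0.996 (0.622 to 1.61). Its ChIP signal was 7.81 times input in HD and 3.71 times input in Ctrl, with the local input at 1.09 times the genome-wide expectation in HD and 2.31 times in Ctrl. The small RNA genes SNORA26 and MIR4449, which lie inside DANCR, were within 1 kb of the same peaks.

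The other lncRNA genes whose promoter windows were overlapped in both lists had coverage-scaled ratios between 0.760 and 1.02. LINC01431 had 32 fragments (21.9 to 45.2) in HD and 24 (15.4 to 35.7) in Ctrl, a coverage-scaled ratio of 0.904 (0.516 to 1.60). LINC00662 had 44 (32.0 to 59.1) in HD and 31 (21.1 to 44.0) in Ctrl, a ratio of 0.963 (0.594 to 1.58). LINC00662 overlaps LINC02987 at its start, and there HD had another peak of 39 fragments (27.7 to 53.3) only 0.298 kb from the nearest Ctrl peak. LOC107985416, which overlaps the antisense gene HM13-AS1, had 41 fragments (29.4 to 55.6) in HD and 30 (20.2 to 42.8) in Ctrl, a ratio of 0.927 (0.565 to 1.54). LOC107986997 on chromosome 9, beside the pseudogene FRG1HP, had 56 fragments (42.3 to 72.7) in HD and 50 (37.1 to 65.9) in Ctrl, a ratio of 0.760 (0.509 to 1.14). Its summits lay outside the promoter window, 426 bases before the gene start in HD and 330 in Ctrl, and nearer to FRG1HP. LOC124903958 on chromosome 17 had 51 (38.0 to 67.1) in HD and 34 (23.5 to 47.5) in Ctrl, a ratio of 1.02 (0.646 to 1.62). Each of these intervals includes 1. LOC105371200 with 21 Ctrl fragments (13 to 32.1) and LOC105379418 with 42 (30.3 to 56.8) had no HD peak, which is a missing call and not a level of 0.

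Members lay within 1 kb of 52 noncoding genes or pseudogenes, 22 of them in both lists, 5 in HD only and 25 in Ctrl only. The Ctrl list is the longer one. Of the peaks at these genes, 15 of 20 in HD (75%) and 15 of 39 in Ctrl (38.5%) overlapped a peak of the other list. Over all peaks on chromosomes 1 to 22 and X these shares were 59.7% in HD and 38.5% in Ctrl. Members lay by 14 HD (1.81%) and 20 Ctrl (2.58%) of the 775 lncRNA genes of these windows, by 7 HD (0.468%) and 11 Ctrl (0.735%) of 1496 pseudogenes, and by 3 HD (1.85%) and 13 Ctrl (8.02%) of 162 transcribed pseudogenes. These totals were not limited to genes clear of coding genes, where alone the rule allows a member. The summit was within 250 bp of an end of a noncoding gene or pseudogene for 11 of the 20 HD peaks and 22 of the 39 Ctrl peaks. Among those called in both lists was ANKRD20A5P, an ankyrin repeat pseudogene on chromosome 18, with 60 fragments (45.8 to 77.2) in HD and 46 (33.7 to 61.4) in Ctrl. LINC03146 on chromosome 17 had 52 fragments (38.8 to 68.2) in HD and 28 (18.6 to 40.5) in Ctrl, a coverage-scaled ratio of 1.26 (0.781 to 2.07). Its ChIP signal over input was in the other order, 3.72 in HD and 7.36 in Ctrl, with the local input at 2.54 times the genome-wide expectation in HD and 1.02 times in Ctrl. HERC2P3, a pseudogene copy of the ubiquitin ligase gene HERC2, had 24 Ctrl fragments (15.4 to 35.7) and no HD peak. MED15P1, a copy of a Mediator subunit gene, had 47 HD fragments (34.5 to 62.5) and no Ctrl peak. Within the immunoglobulin kappa locus (IGK) on chromosome 2, which the annotation does not class as protein-coding, 2 HD and 3 Ctrl peaks were members.

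The pseudogenes of FRG1, a gene of the facioscapulohumeral dystrophy region, recurred among the members, although they were singled out after their values were seen. Of 7 annotated copies in the windows, 5 had a Ctrl peak at one end and 1 of these also had an HD peak. For comparison, 84 of all 390 Ctrl members (21.5%) overlapped an HD peak. All 5 copies are among the 13 transcribed pseudogenes with a Ctrl member. At FRG1HP on chromosome 9, the peaks shared with LOC107986997, the summit lay 4 bp from the gene end in HD and 100 bp from it in Ctrl. FRG1CP, FRG1DP and FRG1EP on chromosome 20 had 21, 45 and 50 Ctrl fragments and FRG1FP on chromosome 22 had 33, all with the summit within 217 bp of a gene end and with no HD peak. These copies are closely related in sequence, so how reads were shared between them is uncertain.

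Members made up a smaller share of the HD list than of the Ctrl list, and this order depended on the length of the lists. They were 8.73% of all HD peaks and 11.1% of all Ctrl peaks, and 198 HD members are 50.8% of 390 Ctrl members. For comparison, HD peaks away from coding genes elsewhere numbered 59.7% of their Ctrl counterparts, and HD peaks at or in coding genes 67.8%. When the 2269 peaks of highest −log10 q (the caller's adjusted significance) were taken from each list, there were 198 HD members (8.73%) and 196 Ctrl members (8.64%). The covered length of the members was 60.1 kb in HD and 112 kb in Ctrl, with a median width of 264 bp (order-statistic 95% interval 249 to 282) in HD and 251 bp (240 to 262) in Ctrl.

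A smaller share of members than of other peaks had a partner in the other list. A peak counted as found when it shared at least 1 bp with a peak of the other list. This held for 85 of 198 HD members (42.9%, exact binomial interval 35.9 to 50.1), where 59.7% of all HD peaks on chromosomes 1 to 22 and X were found, and for 84 of 390 Ctrl members (21.5%, 17.6 to 26), where 38.5% of all Ctrl peaks were found. Away from coding genes elsewhere, 210 of 372 HD peaks (56.5%) and 215 of 623 Ctrl peaks (34.5%) were found. With lists of equal length the members found were 56 of 198 in HD (28.3%, all HD peaks 47.4%) and 56 of 196 in Ctrl (28.6%, all Ctrl peaks 47.5%). The members not found were not near misses as a rule: the nearest peak of the other list was a median of 38.7 kb away for 113 HD members and 95.2 kb away for 306 Ctrl members, and it was within 10 kb for 26 of them in HD and 54 in Ctrl. No chance test was made over peaks, so these shares describe these lists.

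**Figure D1:**
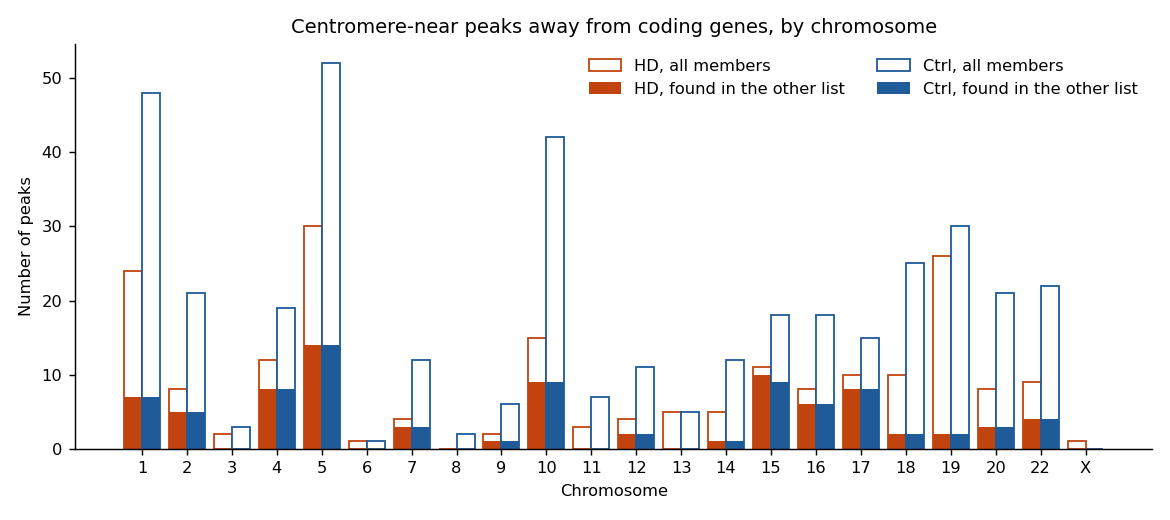
Number of centromere-near peaks away from coding genes on each chromosome, HD (orange, left bar) and Ctrl (blue, right bar), with the filled part found in the other list. Chromosome 5 has 30 HD and 52 Ctrl members, and on chromosome 19 only 2 of 26 HD and 2 of 30 Ctrl members are filled.

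The members were spread unevenly over the chromosomes, and Ctrl had more than HD on 19 of 22. Over all peaks, Ctrl had more than HD on each of the 22. Chromosomes 1, 5, 10 and 19 held 95 HD members (48.0%) and 172 Ctrl members (44.1%). Members were 12.2%, 27.3%, 15.6% and 16.7% of the HD peaks on these chromosomes, in that order. In Ctrl they were 16.5%, 29.5%, 21.9% and 15.2%. Over chromosomes 1 to 22 and X they were 9.12% of peaks in HD and 11.6% in Ctrl. Chromosome 5 carried 30 in HD and 52 in Ctrl, chromosome 1 carried 24 and 48, and chromosome 10 carried 15 in HD and 42 in Ctrl. Chromosomes 6 and 13 had equal numbers, 1 and 5 in each list, and chromosome X had 1 HD member and no Ctrl member. The share of members found in the other list ran widely. On chromosome 15 it was 10 of 11 in HD and 9 of 18 in Ctrl, and on chromosome 17 it was 8 of 10 in HD and 8 of 15 in Ctrl. On chromosome 19 it was 2 of 26 in HD and 2 of 30 in Ctrl, and on chromosome 18 it was 2 of 10 in HD and 2 of 25 in Ctrl. Chromosomes 1, 5 and 19, which share array families, together had 23 of 80 HD members and 23 of 130 Ctrl members found.

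**Figure D2:**
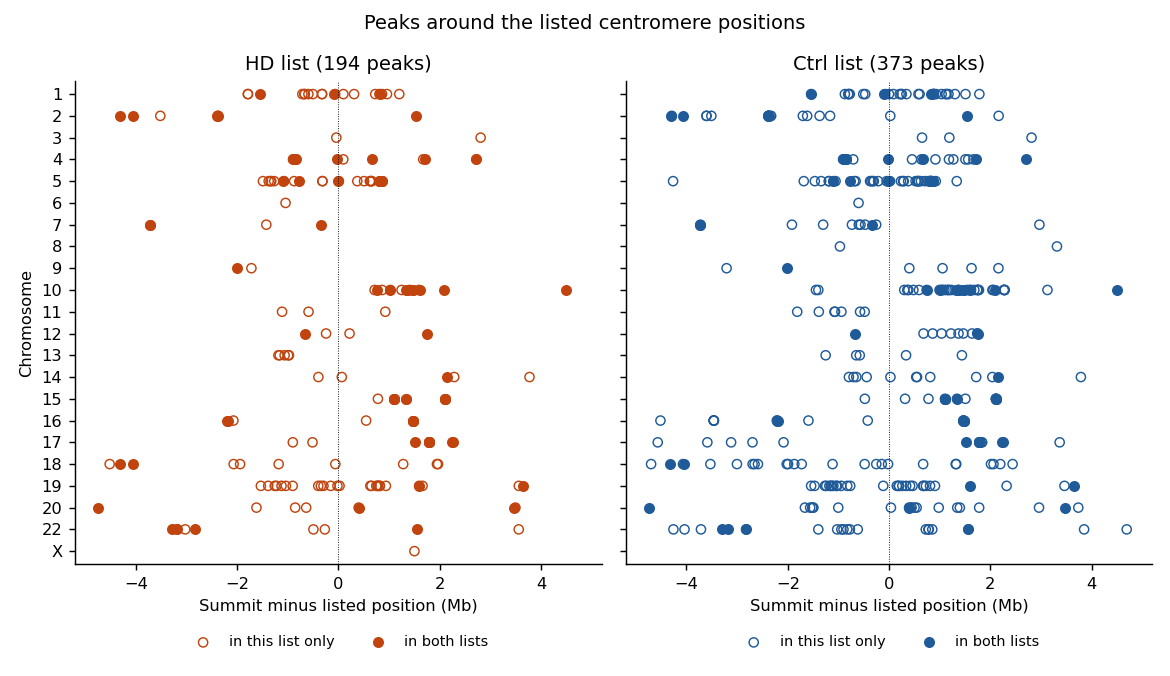
Position of each member's summit as its distance in Mb from the listed centromere position, by chromosome, HD on the left and Ctrl on the right, filled where the peak is in both lists. The 4 HD and 17 Ctrl members in the chromosome 1 segment are not drawn, and most points lie within 2 Mb of the listed position.

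Within the allowed 5 Mb most members lay within 2 Mb of the listed position. The rule itself used this distance and the distance from coding genes. How much sequence could hold a member at each distance was not measured, so these shares have no background. Of the HD members 87 of 198 (43.9%) lay within 1 Mb and 152 (76.8%) within 2 Mb of it, and of the Ctrl members 154 of 390 (39.5%) lay within 1 Mb and 281 (72.1%) within 2 Mb. The outermost HD and Ctrl members away from the chromosome 1 segment lay at 4.74 Mb, both at LINC01431. The nearest peaks outside the window lay at 5.63 Mb in HD (fold 4.17) and 5.16 Mb in Ctrl (fold 3.91). Toward coding genes, the nearest member was 2688 bp away in HD and 1022 bp in Ctrl, and the nearest peaks shut out were 873 bp away in HD and 898 bp in Ctrl.

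**Figure D3:**
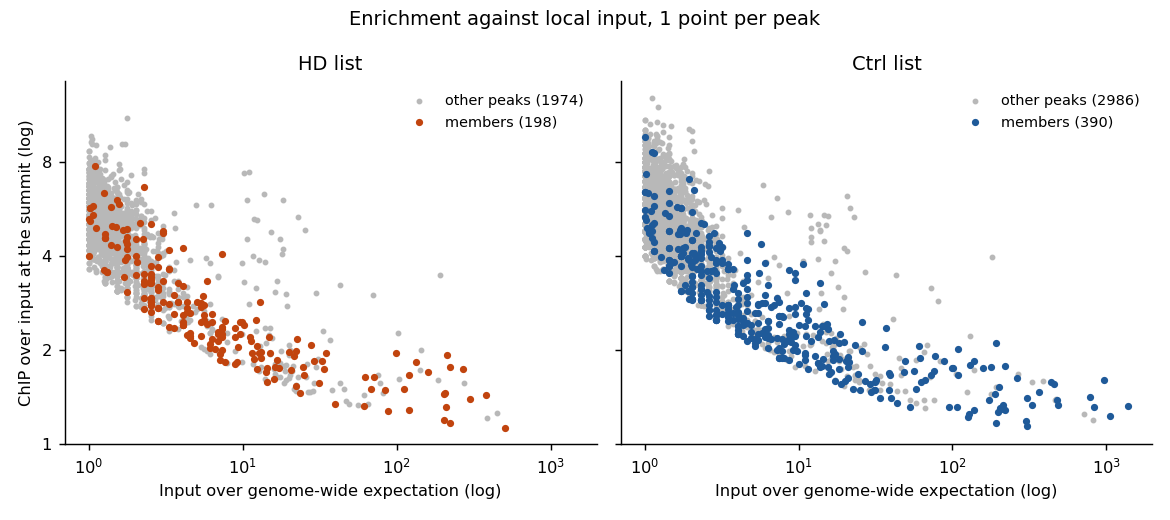
ChIP signal over input at each summit (vertical, log) against local input over the genome-wide expectation (horizontal, log), 1 point per peak, HD on the left and Ctrl on the right, members in colour and other peaks in grey. Members reach from 1 to 510 times the genome-wide input in HD and to 1388 times in Ctrl, and the lower edge of each cloud falls as input grows.

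Many members, though not all, lay at a high local input. Input here is the caller's expectation at the summit over its genome-wide expectation, and it is high where many reads of unselected chromatin pile up. Its median was 4.70 (4.06 to 6.35) over HD members and 4.91 (4.04 to 6.06) over Ctrl members, against 1.37 over all HD peaks and 1.44 over all Ctrl peaks. It was 10 or more for 60 HD members (30.3%, background 7.18%) and 126 Ctrl members (32.3%, background 6.99%), and for 19.1% of HD peaks and 12.7% of Ctrl peaks away from coding genes elsewhere. It was under 2 for 33 HD members (16.7%) and 69 Ctrl members (17.7%). The input expectation was a whole number, within 0.01, at 82.3% of HD members and 82.3% of Ctrl members. Elsewhere away from coding genes it was so at 53.8% of HD peaks and 46.7% of Ctrl peaks, and at or in coding genes at 36.4% in HD and 32.8% in Ctrl.

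The fold enrichment of members was low, and it lay nearer to that of other peaks once peaks of like input were set side by side. The authors' fold had a median of 2.43 (2.31 to 2.62) over HD members and 2.51 (2.39 to 2.66) over Ctrl members, against 4.21 over HD peaks and 4.38 over Ctrl peaks at or in coding genes. Where input was under 2 times the genome-wide expectation, the median fold was 4.14 over 33 HD members and 3.94 over 69 Ctrl members, beside 4.33 in HD and 4.58 in Ctrl at or in coding genes. Where it was 2 to 10, the median fold was 2.62 over 105 HD members and 2.67 over 195 Ctrl members, beside 3.32 in HD and 3.44 in Ctrl at or in coding genes. Where it was 10 or more, the median fold was 1.74 over 60 HD members and 1.74 over 126 Ctrl members, beside 1.79 in HD and 1.85 in Ctrl at or in coding genes. The median −log10 q of members at input 10 or more was 8.20 (4.93 to 11.6) in HD and 9.68 (6.57 to 12.1) in Ctrl. Under 2 it was 5.78 (4.79 to 6.78) in HD and 4.46 (4.01 to 5.86) in Ctrl. Why fold was lower at high input was not tested.

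The members of highest fold had at most 84 fragments and an input of at most 2.28 times the genome-wide one. In HD the highest folds were 6.52 at DANCR, 6.10 at chr1:121613166-121613473 with 84 fragments (67.0 to 104), and 5.48 at chr20:31593406-31593611 with 44 fragments (32.0 to 59.1). In Ctrl they were 7.70 inside the lncRNA gene LOC100996294 on chromosome 17 with 36 fragments (25.2 to 49.8), 7.06 at chr22:13975387-13975600 with 37 (26.1 to 51.0), and 7.06 at chr7:63068302-63068616 with 36 (25.2 to 49.8). Of these 6 peaks, DANCR alone was found in the other list.

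**Figure D4:**
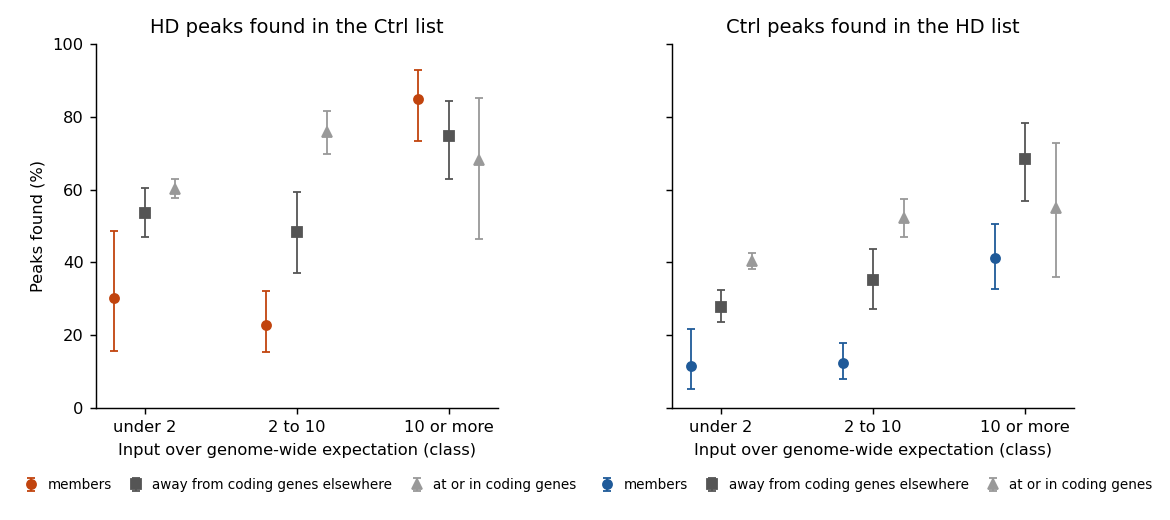
Share of peaks found in the other list by class of local input, HD peaks on the left and Ctrl peaks on the right, with exact 95% binomial intervals, for members (coloured circles), peaks away from coding genes elsewhere (squares) and peaks at or in coding genes (triangles). Members at input 2 to 10 are found in 22.9% of cases in HD and 12.3% in Ctrl, while members at 10 or more are found in 85.0% in HD and 41.3% in Ctrl.

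The share of members found in the other list varied with input, with distance to genes and with the peak's own −log10 q, which were not separated. Below 2 times the genome-wide input, 10 of 33 HD members (30.3%, 15.6 to 48.7) and 8 of 69 Ctrl members (11.6%, 5.14 to 21.6) were found, where peaks away from coding genes elsewhere gave 53.7% (46.8 to 60.4) in HD and 27.8% (23.5 to 32.4) in Ctrl. Between 2 and 10 times, 24 of 105 HD members (22.9%, 15.2 to 32.1) and 24 of 195 Ctrl members (12.3%, 8.05 to 17.8) were found, where peaks away from coding genes elsewhere gave 48.2% (37.1 to 59.4) in HD and 35.0% (27.1 to 43.6) in Ctrl. At 10 times or more, 51 of 60 HD members (85.0%, 73.4 to 92.9) and 52 of 126 Ctrl members (41.3%, 32.6 to 50.4) were found, where peaks elsewhere gave 74.6% in HD and 68.4% in Ctrl. It varied with the distance to genes as well, since 15 of 20 HD members at noncoding genes (75%) and 15 of 39 Ctrl ones (38.5%) were found, against 39 of 133 HD members (29.3%) and 39 of 257 Ctrl members (15.2%) over 100 kb from any gene. Among the 39 HD members of lowest −log10 q, 9 were found (23.1%), and among the 40 of highest, 33 (82.5%). In Ctrl 7 of the 78 lowest (8.97%) and 33 of the 78 highest (42.3%) were found.

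Joined where 10 kb or less apart, the members of both lists formed 381 loci, of which 73 held members of both lists, 82 of HD only and 226 of Ctrl only. The Ctrl list is the longer one, and other peaks were not joined into loci, so this split has no background. Most loci, 290, were a lone peak. The 8 loci with the most peaks held 34 HD and 60 Ctrl members, with 32 of the 34 in HD (94.1%) and 32 of the 60 in Ctrl (53.3%) found in the other list. Outside these loci, 53 of 164 HD members (32.3%) and 52 of 330 Ctrl members (15.8%) were found. Loci were ranked by HD and Ctrl peaks together, so a shared peak counts for both lists and the ranking itself favours loci with shared peaks.

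The loci with the most peaks had 19 each. The first, on the long arm of chromosome 1 at chr1:143194947-143266812, had 4 HD and 15 Ctrl peaks. Its nearest gene was the lncRNA LOC101929814, 32.7 kb away. The 4 HD peaks had 612 to 3163 fragments and folds of 1.13 to 1.45, and the 15 Ctrl peaks had 467 to 5779 fragments and folds of 1.14 to 1.77. All 4 HD peaks were found in Ctrl and lay at 87.3 to 510 times the genome-wide input, while the Ctrl peaks reached 1053 times. The second, chr5:49599533-49633680, had 7 HD and 12 Ctrl peaks, with folds of 1.63 to 2.81 in HD and 1.31 to 3.24 in Ctrl. Its nearest gene, EMB, which encodes the membrane glycoprotein embigin, was 763 kb away. All 7 HD peaks and 7 of the 12 Ctrl peaks were shared.

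The other large loci were smaller and in several cases nearly the same in both lists. On chromosome 16, chr16:38266356-38280360 had 4 HD and 7 Ctrl peaks, 2164 kb from the nearest annotated gene. On chromosome 17, chr17:26881007-26885885 had 5 HD and 5 Ctrl peaks, each with a partner, at 99.6 to 383 times the genome-wide input in HD and 98.7 to 363 times in Ctrl. Chromosome 15 had 2 such loci, chr15:21107545-21112860 with 4 HD and 7 Ctrl peaks and chr15:20100602-20105716 with 4 HD and 5 Ctrl peaks, 4.41 kb and 4.57 kb from pseudogenes of 7SL, the RNA of the signal recognition particle (RN7SL400P and RN7SL584P). The locus chr4:49144625-49153582 had 3 HD and 3 Ctrl peaks, all shared. At chr2:91516326-91528804 there were 3 HD and 6 Ctrl peaks, of which 1 in each list was shared.

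The members of highest −log10 q that were in both lists had large fragment numbers and coverage-scaled ratios of 0.916 to 1.10. At chr5:49630830-49631069 HD had 2258 fragments (2166 to 2353) and Ctrl had 1513 (1438 to 1591), 1.92 times input in HD and 2.11 times in Ctrl. The coverage-scaled ratio was 1.01 (0.948 to 1.08). At chr17:26881007-26881545 HD had 2578 fragments (2479 to 2679) and Ctrl had 1592 (1515 to 1672), a ratio of 1.10 (1.03 to 1.17). Its ChIP signal was 1.73 times input in HD and 1.62 times in Ctrl. Its neighbour at chr17:26885301-26885885 had a ratio of 1.00 (0.937 to 1.07), with 1.77 times input in HD and 1.78 times in Ctrl. The peak at chr10:41124980-41125500 had a ratio of 0.916 (0.836 to 1.004), with 1.66 times input in HD and 2.02 times in Ctrl. That at chr1:143235763-143236038 had a ratio of 0.927 (0.859 to 0.9997), with 1.45 times input in HD and 1.77 times in Ctrl. The intervals treat each fragment as an independent molecule, which amplified reads are not.

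The Ctrl-only members of highest −log10 q all lay at very high input. On chromosome 1 there were 4 of them, with 5779 fragments (5631 to 5930) at chr1:143214314-143214828, 6832 (6671 to 6996) at chr1:125182516-125182713, 4176 (4050 to 4305) at chr1:143254450-143254939 and 2658 (2558 to 2761) at chr1:143194947-143195272. The remaining one, chr16:34582765-34583173, had 2589 (2490 to 2691). Their ChIP signal was 1.61, 1.32, 1.42, 1.55 and 1.58 times input, at 963, 1388, 788, 458 and 438 times the genome-wide input. In the same order, the nearest HD peak was 12.5, 582, 7.23, 32.1 and 10.1 kb away. At 100 or more times the genome-wide input there were 16 HD and 37 Ctrl members: all 16 HD members were found in Ctrl, and 21 of the 37 Ctrl members had no HD peak. Of those 21, 12 lay on chromosome 1, 6 on chromosome 10, 2 on chromosome 16 and 1 on chromosome 5. An HD peak lay within 20 kb of 11 of the 21. The folds of the 21 ran from 1.14 to 1.79, and the 16 HD members in this class were called at folds from 1.13 to 1.92. The share without a partner was not counted over all peaks at this input, so these counts have no background. Fragment numbers and input at uncalled places were not used here, and whether input differed there between HD and Ctrl was not tested.

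The 5 HD-only members of highest −log10 q had lower input and higher fold than the 5 Ctrl-only ones just named. The peak chr1:121613166-121613473 had 84 fragments (67.0 to 104) at 2.28 times the genome-wide input, 41.3 kb from EMBP1, a transcribed pseudogene of embigin, and 237 kb from the nearest Ctrl peak. The peaks chr5:48807931-48808136 with 95 fragments (76.9 to 116) and chr11:52285910-52286120 with 81 (64.3 to 101) lay 6.73 kb and 34.8 kb from a Ctrl peak. The peaks chr22:14730639-14730863 with 71 fragments (55.5 to 89.6) and chr11:52808562-52808787 with 107 (87.7 to 129) lay 349 kb and 18.4 kb from one. These 5 peaks were 3.32 to 6.67 times input, at 2.28 to 5.84 times the genome-wide input. In all, 81 of the 113 HD members not found in Ctrl and 171 of the 306 Ctrl members not found in HD lay at input 2 to 10. Over all members not found, HD and Ctrl were much closer than the 5 named of each. The median fold was 2.69 (2.53 to 2.77) for the 113 in HD and 2.61 (2.48 to 2.69) for the 306 in Ctrl. The median input was 3.30 (2.79 to 4.06) times the genome-wide one in HD and 4.04 (3.46 to 4.62) times in Ctrl.

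On chromosome 19, which was singled out after its values were seen, members were numerous and rarely shared, and 17 in each list lay at input 2 to 10. The chromosome held 156 HD and 197 Ctrl peaks in all, and how many of those were shared was not counted. Its 26 HD and 30 Ctrl members were nearly equal in number, and 21 in HD and 26 in Ctrl were over 100 kb from any gene. Their median input was 2.92 times the genome-wide one in HD and 3.90 times in Ctrl, and their median folds were 2.85 in HD and 2.54 in Ctrl. The 24 HD peaks without a Ctrl peak had the nearest one a median of 32.2 kb away, and the 28 Ctrl peaks without an HD peak 38.4 kb away. The shared ones were the LINC00662 promoter and a peak at chr19:29844662-29845175 with 45 fragments in HD and 35 in Ctrl.

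**Figure D5:**
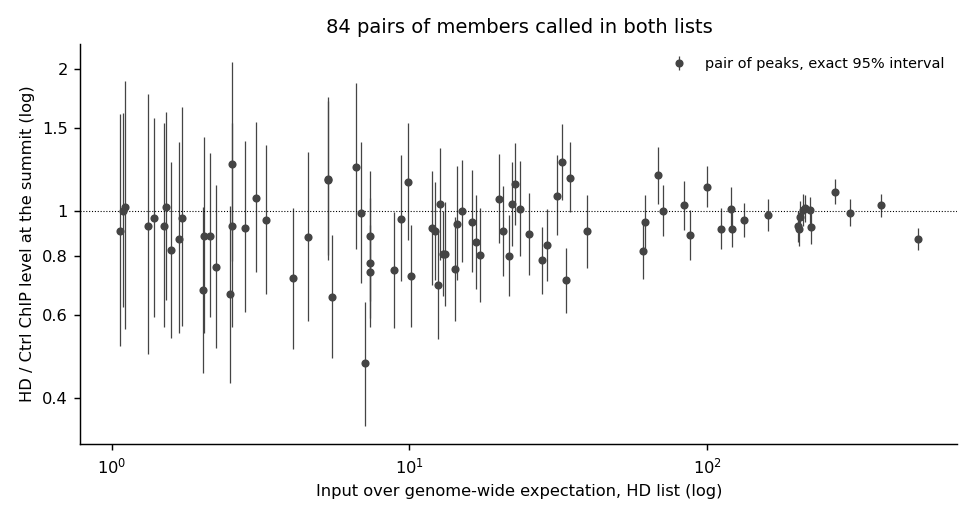
Ratio of the HD to the Ctrl ChIP level, each over its mean coverage, at the 84 pairs of members called in both lists (vertical, log), against the input of the HD peak over the genome-wide expectation (horizontal, log), with exact 95% intervals for counting error. The median ratio is 0.927, and 64 of the 84 intervals include 1.

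At the 84 places called in both lists, the coverage-scaled ChIP level was a little lower in HD in the median, as it was over all pairs. The median HD to Ctrl ratio was 0.927 (order-statistic interval 0.904 to 0.965), against 0.899 (0.889 to 0.912) over all 1292 pairs on chromosomes 1 to 22 and X. HD was higher at 26 of the 84 pairs (31.0%), where 28.1% of all pairs had HD higher. ChIP over input was lower in HD at 49 of 84 (58.3%), where 61% of all pairs had it lower, with a median ratio of 0.972 (0.911 to 1.01) over members and 0.920 (0.906 to 0.943) over all pairs. The shares with HD higher and with ChIP over input lower in HD stood near the background. The counting interval lay below 1 at 16 member pairs (19%) and above 1 at 4 (4.76%), against 61 (4.72%) and 9 (0.697%) of all pairs. Members had more fragments than other peaks and so narrower intervals. Among pairs at 10 or more times the genome-wide input, it lay below 1 at 12 of 50 member pairs (24%) and above 1 at 4 (8%), against 10 (14.5%) and 3 (4.35%) of 69 other pairs. The summits of a pair lay a median of 13 bp apart over members (7 to 20), against 41 bp (39 to 44) over all pairs, and 66 of the 84 were within 50 bp.

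The pairs differed by locus, and in some loci the input moved with the ChIP level. In the 4 pairs at chr16:38266356-38280360 the HD to Ctrl ChIP ratio was 0.718 to 0.774, the input ratio was 0.671 to 0.797 and the ratio of ChIP over input was 0.971 to 1.08. In the 11 pairs of chromosome 5 between chr5:49599533-49600029 and chr5:49661445-49661761 the ChIP ratio ran from 0.473 to 1.01 with HD higher in 1 pair, and the input ratio from 0.379 to 1.11. The lowest of these, chr5:49618653-49618894, had 76 HD fragments and 109 Ctrl fragments, a ratio of 0.473 (0.348 to 0.640), with an input ratio of 0.379. In the 9 pairs of chromosome 15 the ChIP ratio was 0.747 to 1.01 and the input ratio was 0.810 to 1.49. ChIP over input was lower in HD in 8 of the 9. In the 5 pairs at chr17:26881007-26885885 the ChIP ratio was 0.971 to 1.13 with an input ratio of 1.01 to 1.05, and HD was higher in 4. The highest ratio among member pairs, 1.27 (1.05 to 1.53), was at chr2:89836288-89836577 inside IGK, with 331 HD fragments and 177 Ctrl fragments. The input ratios are given without an interval for their own counting error. The part of input in these ratios was not tested.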

How the data were processed

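BG4 ChIP-seq peaks of U2OS cells were analysed, with 1 list for HD and 1 for Ctrl, which the labels tie to 2 ChIP libraries and 1 input library per condition. The submitters' processing notes name Bowtie2 2.5.0, SAMtools, FastQC 0.11.9, MACS2 2.2.7.1 and hg38. They give no settings and say nothing of duplicate reads. The authors deposited a position, a score, a fold enrichment, −log10 p and −log10 q and a summit for each peak. The deposited lists end at a q-value of 0.05 (lowest −log10 q of 1.30 in HD and 1.31 in Ctrl). Library depths were not used here, so precision rests on the fragments per summit. The score was not used, and peaks were ranked by fold and −log10 q within their own list. HD and Ctrl folds stand side by side in places as each list's own values, and levels were compared by recovered fragments, with the ratio of deposited folds as an alternative.

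In MACS2 a peak's fold is its scaled fragment pileup plus 1 divided by the input expectation plus 1. Its p was taken as the Poisson chance of exceeding that pileup, rounded down to a whole number. Both were solved together for the fragment number and the expectation. From repeated fold and p pairs the scale was 0.715 in HD and 0.927 in Ctrl, and the genome-wide expectation 3.94 in HD and 3.46 in Ctrl. A whole fragment number matched −log10 p within 0.01 for 2267 of 2269 HD peaks and 3507 of 3507 Ctrl peaks. More than 1 number matched at 42 HD and 42 Ctrl members, by at most 8.70% and 7.50% of the number in HD and Ctrl, and the closest was taken. ChIP over input is the scaled fragment number over the expectation.

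Genes came from a RefSeq table of GRCh38.p14 (59098 genes on chromosomes 1 to 22 and X, 19974 protein-coding). Coordinates count from 1. Named loci and peaks followed a rule: the 8 loci with most members, the 5 of highest −log10 q in both lists, in HD only and in Ctrl only, and the 3 of highest fold in each list. The noncoding genes named besides, the FRG1 copies and chromosome 19 were chosen after seeing values, and all members and lists were chosen with earlier results of these data known. Shares have exact binomial, counts exact Poisson and medians order-statistic 95% intervals, for counting error only. Alternatives were a stricter −log10 q, equal list lengths, other windows, gene distances, overlaps and joining distances. No genome sequence was used, so planned motif counts over peaks were not made. Python 3.11.15, numpy 2.4.6, pandas 2.3.3, scipy 1.17.1 and matplotlib 3.10.9 were used.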

Additional observations from a re-analysis of the deposited data

How the results depend on the processing

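The 2 lists have no values per library, so leaving out a replicate was not possible and every interval covers counting error only. No paired analysis was possible because each condition has 1 list and no column per library. Of 82 alternative values, 63 stayed within the counting interval or within 1.5 times of the reported count. The cause of the other shifts was not tested, except that a stricter limit or a narrower window leaves fewer peaks.

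At −log10 q of at least 3, members made up 7.47% of the HD list and 9.06% of the Ctrl list, and the Ctrl median fold was 2.70 and median input 6.06 times the genome-wide expectation. A 2 Mb window left 6.88% of HD peaks and 8.50% of Ctrl peaks as members. With lists of equal length, 28.3% of HD members and 28.6% of Ctrl members were found in the other list, and the 196 Ctrl members made up 8.64% of the list, with a median fold of 2.73, width of 266.5 bp and input of 7.51. As alternatives chosen after seeing the data, the share found was 32.3% in HD and 15.8% in Ctrl without the 8 loci with most peaks, a ranking that favours shared peaks, and 24.6% in HD and 12.1% in Ctrl without peaks at 10 or more times the genome-wide input. Joining within 100 kb gave 191 loci in place of 381. The ratio of deposited folds at shared members had a median of 0.971, against 0.927 for coverage-scaled fragments.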
